A study of Mus musculus with 4 samples.

Results

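The 9 genes described here encode receptors that place leukocytes in tissues and 2 partners of that system, and were given as a list: Cxcr4, Cxcr6, Ccr7, Cx3cr1, Ccr8 and Cxcr5, which are chemokine receptors, Cxcl16, the ligand of CXCR6, S1pr1, a receptor for sphingosine-1-phosphate, and Cd69, an early activation molecule. They are 9 of the 27998 genes in the deposited matrices, each matched by its symbol to a single row. The libraries hold live leukocytes, sorted as propidium iodide-negative, CD45.2-positive cells, from B16-GP33 melanomas grown under the skin of C57BL/6 mice for 18 days. The B16-GP33 cells are melanoma cells of the mouse with the added viral peptide GP33, which CD8 T cells recognise. All 4 groups carried this tumour and differed in the antibody given on days 8, 10 and 12. The mice received IgG, an antibody to the inhibitory receptor PD-1, an antibody to the adhesion molecule PSGL-1, or the last pair at once, called the combination, at 200 ug of each antibody. Where 4 values stand in a row they follow this order, with IgG first and the combination last, and 3 ratios in a row leave out IgG. Each group is 1 library of cells captured on the 10x Genomics platform. How many tumours went into a library is not stated in the labels, nor the age and sex of the mice.

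Chemokine receptors steer cells along gradients of chemokines. CCR7 brings naive T cells and migrating dendritic cells to lymph nodes, and CXCR5 guides B cells to follicles. CXCR4 follows CXCL12 and holds several leukocyte types in bone marrow and inflamed tissue. CXCR6 and CX3CR1 bind CXCL16 and CX3CL1, chemokines that are made as membrane proteins. CCR8 is known from regulatory T cells of tumours. S1PR1 lets lymphocytes leave a tissue towards the higher sphingosine-1-phosphate of blood and lymph, and the CD69 protein binds S1PR1 and takes it off the cell surface, a step that RNA counts do not see. High CXCR6 and CD69 with low S1PR1 and CCR7 is the usual description of tissue-resident T cells.

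Each group being 1 library, nothing shows the spread between replicates and the groups were not tested against each other. Levels are unique molecular identifiers (UMIs) of a gene per 1000000 UMIs of a cell class in a library, written CPM. A gene was counted as measured in a comparison where the 2 libraries together held at least 50 UMIs of it in the class, and as past the threshold where its CPM ratio was at least 1.5 or at most the inverse of 1.5. Intervals are exact 95% intervals and cover counting error only, and they are too narrow where a few cells hold most of a gene's UMIs.

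The libraries held 45411218, 40913129, 53303195 and 44983543 UMIs. After filters 8748, 5019, 6492 and 4228 cells were kept, with a median of 3674.5, 6252, 6164 and 8392 UMIs per cell. Ptprc, which encodes CD45, had a UMI in 85.0% to 94.0% of cells of a library, and the 5 melanoma markers looked for summed to between 5.98 and 16.7 CPM. Pairs of libraries shared between 6 and 14 cell barcodes, at most 0.260% of the smaller library. The cells fell into 15 named classes. Unnamed were 1119 IgG cells against 22 to 92 in the other libraries, most of the IgG ones in a single cluster that mixed lineages. That cluster held 1078 IgG cells, and 86.5% of its cells had a Cd3 UMI and 63.1% a Cd8 UMI. UMIs of Cd3 and Cd8 genes without Cd4 or Foxp3 marked 1935 IgG cells, and 1196 of these were in the CD8 T-like class. In the other libraries these were 1040 of 1199, 1224 of 1441 and 1620 of 1732. The IgG class thus left out more of such cells.

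Sequence upstream of the start site was at hand for 4 of the 9 genes (Cxcr4, Cxcr6, Cx3cr1 and Ccr8) in the RefSeq table on GRCm38.p6. The 250 bases before the start of Cxcr6 and Cxcr4 are shown because these receptors are both found on CD8 T cells. They lay on opposite sides of IgG there, in the combination as with anti-PD-1 alone. The Cxcr6 ratios were short of the threshold, and Cxcr4 with anti-PD-1 changed side under an alternative given further on. Both strands were searched for CACCC, a motif of the Krüppel-like factors, and TGTGGT, a motif of the Runx factors, which do not overlap each other in these windows, and matches on either strand are in capitals. Cxcr6 is at chr9:123806227-123806476 on the plus strand and Cxcr4 at chr1:128592300-128592549 on the minus strand.
Cxcr6: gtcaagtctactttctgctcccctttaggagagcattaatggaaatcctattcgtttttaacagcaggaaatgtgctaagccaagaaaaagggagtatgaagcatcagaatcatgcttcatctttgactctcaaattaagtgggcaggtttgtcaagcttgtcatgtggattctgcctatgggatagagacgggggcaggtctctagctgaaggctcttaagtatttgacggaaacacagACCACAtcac
Cxcr4: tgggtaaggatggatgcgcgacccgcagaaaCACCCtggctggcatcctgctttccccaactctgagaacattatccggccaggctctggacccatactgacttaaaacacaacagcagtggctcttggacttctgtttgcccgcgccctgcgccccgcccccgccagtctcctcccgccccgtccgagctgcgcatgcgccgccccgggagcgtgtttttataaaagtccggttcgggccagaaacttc
The Cxcr6 window held 1 reverse-strand match to TGTGGT and no CACCC, and the Cxcr4 window held 1 CACCC and no TGTGGT. Of 32851 windows of the same length in the table, 52% held CACCC and 14% held TGTGGT on either strand, so a match to the former is common. The matches describe letters and no binding was measured.

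Each gene had its own order of cell classes. Cxcr6 (ENSMUSG00000048521, chr9:123806475-123811760, GRCm38) was a T cell gene in these tumours. Conventional CD4 T-like cells were highest, at 415, 396, 397 and 385 CPM, a mean of 398 ± 12.1 (SD, n = 4 libraries). CD8 T-like cells followed at 382 ± 38.8 CPM, with a range over libraries that overlapped that of conventional CD4 T-like cells. T cells outside the named subsets held 235 ± 70.5 CPM and regulatory T-like cells 147 ± 47.4 CPM. Every other class with at least 20 cells in a library was below 62 CPM there.

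Within the T cells the highest Cxcr6 was in a cluster led by Actn2, Il17a and Cd163l1, the last of which marks gamma-delta T cells. It held 1154 CPM in its 82 IgG cells and 865 CPM in its 64 anti-PSGL-1 cells, above the 265 to 586 CPM that the CD8 T-like subclusters led by Tff1, Hist1h1b, Gzmk or Serpine2, described further on, held in the anti-PSGL-1 library. The other 2 libraries had 4 and 10 of its cells and gave no level.

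Cxcl16 (ENSMUSG00000018920, chr11:70453983-70459984) was found in dendritic cells and macrophages, whereas the receptor was highest in T cells. Migratory dendritic-like cells, the highest in Cxcl16, also held Cxcr6, at 31.8 to 61.4 CPM in the libraries with at least 20 such cells. Migratory dendritic-like cells held 671 (IgG), 1339 (anti-PD-1) and 654 (anti-PSGL-1) CPM, and the combination library had 13 of these cells and no level. cDC2-like cells held a mean of 284 ± 101 CPM over the 4 libraries, macrophage-like cells 234 ± 87.6 and cDC1-like cells 161 ± 19.8, and these ranges overlapped in turn. Non-classical monocyte-like cells were lower, at 74.3 ± 32.6 CPM, and classical monocyte-like cells lower again, at 33.6 ± 11.1. CD8 T-like cells held at most 2.28 CPM.

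Ccr7 (ENSMUSG00000037944, chr11:99144196-99155077) was highest in migratory dendritic-like cells, at 4266 (IgG), 5029 (anti-PD-1) and 4026 (anti-PSGL-1) CPM. B-like cells were second at 884 ± 46.6 CPM, with no overlap between the ranges. Other T cells held 187 ± 21.5, cDC2-like cells 183 ± 24.2, regulatory T-like cells 116 ± 26.5 and CD8 T-like cells 67.1 ± 36.7 CPM. Among other T cells the gene was concentrated in a cluster led by Ccl1, Csf2 and Ifng, at 834, 492, 455 and 811 CPM. The naive-like CD8 subcluster, the cells the gene is known for, held 452 to 587 CPM.

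Cx3cr1 (ENSMUSG00000052336, chr9:119901616-120069879) was highest in non-classical monocyte-like cells, at 261, 138, 185 and 159 CPM. Classical monocyte-like cells followed at 99.3 ± 26.2 CPM, then macrophage-like cells at 45.1 ± 14.5 and CD8 T-like cells at 42.7 ± 12.0, the last pair overlapping. The macrophage value rested on few cells. In the anti-PSGL-1 library 1 macrophage-like cell held 147 of the 681 UMIs, and the 5 highest cells held 33.1% to 54.1% of the UMIs in the 4 libraries. NK-like cells were low as a class (3.08 to 8.36 CPM), but a cluster of them led by Gzma, Klra9 and Klra8 held 26.0, 42.4, 162 and 66.1 CPM on 5 to 16 UMIs, against 1.01 to 1.76 CPM in the large NK-like cluster led by Car2, Klra4 and Gzmc.

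Cxcr4 (ENSMUSG00000045382, chr1:128588199-128592293) was the least selective of the 9. Neutrophil-like cells (427 ± 129 CPM), non-classical monocyte-like cells (380 ± 57.8), B-like cells (290 ± 66.7), NK-like cells (269 ± 108), macrophage-like cells (214 ± 40.6) and conventional CD4 T-like cells (206 ± 91.5) led the order, and each range overlapped the one above it. CD8 T-like cells were lower, at 39.8 to 85.4 CPM.

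Ccr8 (ENSMUSG00000042262, chr9:120092114-120094906) was highest in regulatory T-like cells, at 36.6, 17.4, 34.4 and 38.7 CPM. The next class, other T, held at most 11.4 CPM, and the ranges did not overlap. It was scarce in UMIs, with 16 to 93 in regulatory T-like cells of a library. Cxcr5 (ENSMUSG00000047880, chr9:44511787-44561877) was a B cell gene, at 180, 186, 209 and 163 CPM in B-like cells. Migratory dendritic-like cells held 36.2 (IgG), 79.5 (anti-PD-1) and 21.6 (anti-PSGL-1) CPM of it. CD8 and conventional CD4 T-like cells had at most 4.45 CPM of Cxcr5 in any library.

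S1pr1 (ENSMUSG00000045092, chr3:115710433-115715072) was highest in B-like cells, at 292, 216, 251 and 220 CPM. Conventional CD4 T-like cells (175 ± 55.1 CPM) and other T cells (113 ± 47.2) came next, each range overlapping the one above it, and CD8 T-like cells held 35.3 ± 27.4. Myeloid classes were low, macrophage-like cells at 1.45 to 5.31 CPM.

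Cd69 (ENSMUSG00000030156, chr6:129267325-129275436) was highest in mast or basophil-like cells, at 1389 CPM in the 24 IgG cells, the single library with enough of them. Plasmacytoid dendritic-like cells held 284 (IgG) and 412 (anti-PD-1) CPM. Of the T cells, conventional CD4 T-like cells held the most, at 617, 554, 779 and 873 CPM. B-like cells (275 ± 55.5 CPM), other T cells (237 ± 19.5) and regulatory T-like cells (86.9 ± 15.0) were lower. CD8 T-like cells, at 45.5 to 83.5 CPM, and NK-like cells, at 59.8 to 92.4, were among the lower lymphocyte classes.

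**Figure D1:**
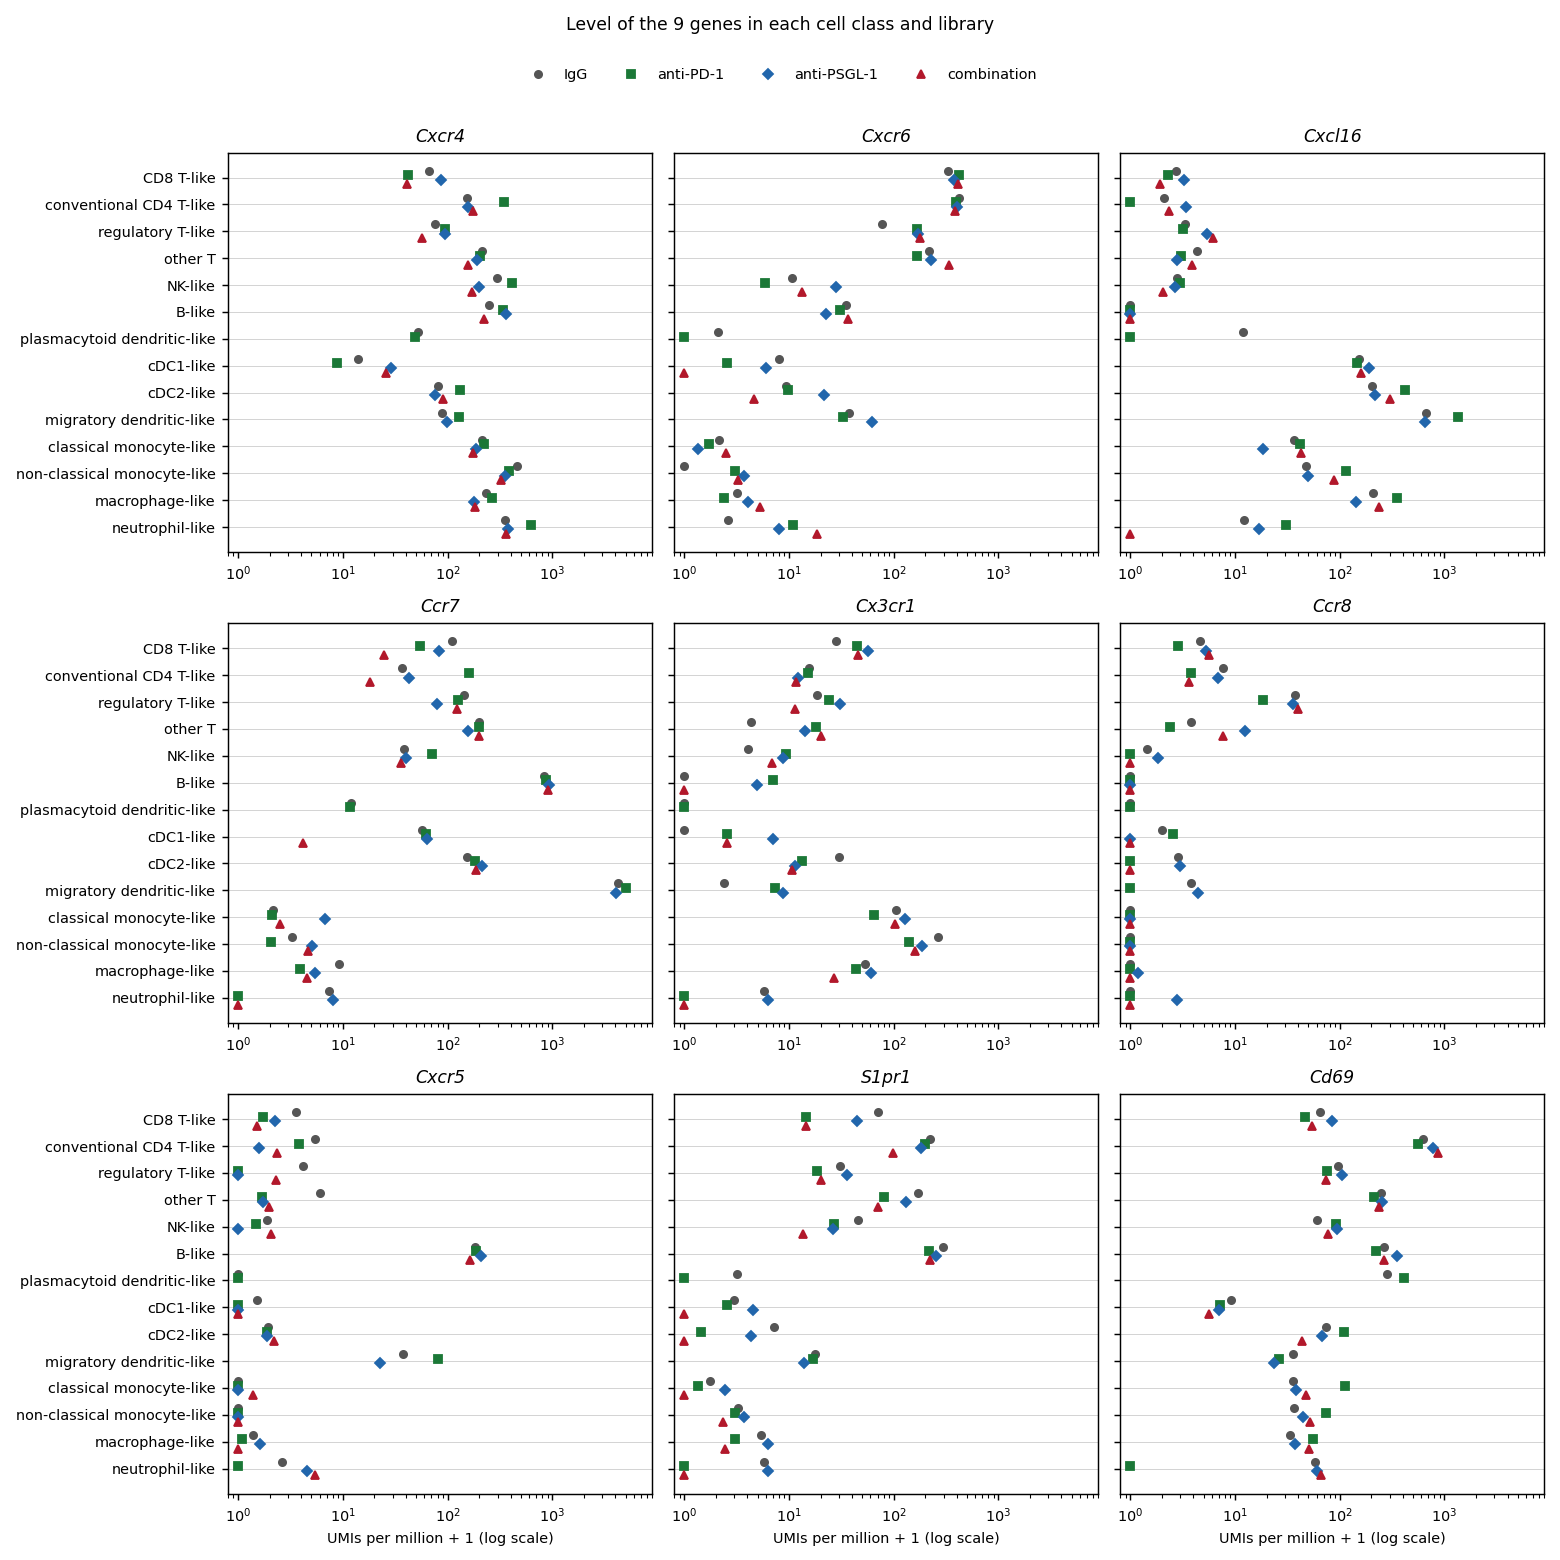
Level of each of the 9 genes (CPM + 1, log axis) in 14 cell classes, one panel per gene and one symbol per library for classes with at least 20 cells in that library. Cxcr6 separates T cells, Cxcl16 dendritic cells and macrophages, Ccr7 migratory dendritic-like and B-like cells, and Cxcr5 B-like cells, while Cxcr4 is present in most classes.

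Some members share ground with other genes, and whether the counting used strand is not stated in the labels. Cxcl16 overlaps Zmynd15 on the other strand, and Zmynd15 held 298 CPM in migratory dendritic-like cells, where Cxcl16 over the 4 libraries pooled held 745, but 10.5 CPM in cDC2-like cells against 258 for Cxcl16. Cxcr6 overlaps Fyco1, at 16.5 CPM in CD8 T-like cells against 390 for Cxcr6, and Cxcr5 overlaps Bcl9l, at 11.4 CPM in B-like cells against 191. One long transcript model of Cx3cr1 spans Csrnp1 on the same strand, at 302 CPM in non-classical monocyte-like cells against 173 for Cx3cr1.

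The genes whose pattern over the 15 classes was most like each member's were found among 7799 genes by Pearson's r of log2(CPM + 1). The classes are not independent samples, so these are descriptions. Cxcr6 was most like Ubash3a (r = 0.94), Themis (0.93) and Cd6 (0.93), which act in T cell receptor signalling or T cell adhesion. Ccr8 was most like Izumo1r, which encodes folate receptor 4 (0.95), Wisp1 (0.93) and C2cd4b (0.93). S1pr1 was most like Edaradd (0.94), Cxcr4 like Arhgef3 (0.92), Cxcl16 like Synj1 (0.91), Ccr7 like Casc3 (0.91), Cxcr5 like Yme1l1 (0.90), Cx3cr1 like Ggh (0.89) and Cd69 like Zbtb43 (0.88).

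In CD8 T-like cells the treated libraries had less RNA of the lymph node homing and egress receptors and more of Cx3cr1 than the IgG library. S1pr1 was at 70.5, 13.6, 43.7 and 13.5 CPM. Ccr7 was at 109, 53.3, 82.1 and 23.9 CPM. For both genes the IgG library was highest and the combination lowest, the combination and anti-PD-1 being the same for S1pr1 within counting error. The ratios to IgG of S1pr1 were 0.19 (0.161 to 0.228) for anti-PD-1, 0.62 (0.550 to 0.698) for anti-PSGL-1 and 0.19 (0.166 to 0.221) for the combination. For Ccr7 they were 0.49 (0.442 to 0.540), 0.75 (0.687 to 0.824) and 0.22 (0.196 to 0.244). Ccr7 was also lower in the combination than in either single antibody, at 0.45 (0.399 to 0.504) of anti-PD-1 and 0.29 (0.261 to 0.324) of anti-PSGL-1.

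Cx3cr1, in T cells a mark of cytotoxic effector cells, was at 27.0, 43.3, 56.3 and 44.2 CPM. The 3 treated libraries were all above IgG, with ratios of 1.61 (1.37 to 1.88), 2.09 (1.79 to 2.43) and 1.64 (1.42 to 1.90). Cxcr6 was at 332, 417, 372 and 408 CPM, ratios of 1.26, 1.12 and 1.23 that did not reach the threshold. Cxcr4 separated the libraries in another way, at 64.8, 40.7, 85.4 and 39.8 CPM. It was below IgG with anti-PD-1 (0.63, interval 0.555 to 0.709) and the combination (0.61, 0.551 to 0.685) and above IgG with anti-PSGL-1 (1.32, 1.19 to 1.46), which is short of the threshold. With each cell thinned to 2000 UMIs the first pair of ratios was 0.82 and 0.74, and with subclusters weighing the same, an alternative described further on, 1.14 and 0.83, all short of the threshold. Cd69 was likewise highest with anti-PSGL-1, at 64.2, 45.5, 83.5 and 52.7 CPM, with no ratio to IgG past the threshold. Under the alternatives its anti-PSGL-1 ratio ran from 1.145 to 1.755, so it passed the threshold in part of them.

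Ccr8 was scarce in CD8 T-like cells, at 31, 23, 51 and 100 UMIs, or 3.62, 1.86, 4.30 and 4.69 CPM. The anti-PD-1 library was lowest, at 0.51 of IgG (0.285 to 0.908), and the combination was 2.53 times anti-PD-1 (1.59 to 4.17). Cxcl16 and Cxcr5 did not reach 50 UMIs in any pair and were not compared.

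The counts past the threshold in CD8 T-like cells were 5 of 7 measured members for anti-PD-1 against IgG (1 higher, 4 lower) where 10.4% of all measured genes passed (5.03% higher, 5.41% lower), 2 of 7 for anti-PSGL-1 against IgG (1 higher, 1 lower) where 4.13% passed (2.46% higher, 1.67% lower), and 4 of 7 for the combination against IgG (1 higher, 3 lower) where 10.3% passed (5.64% higher, 4.7% lower). For the combination they were 2 of 7 against anti-PD-1, where 5.88% passed, and 4 of 7 against anti-PSGL-1, where 10.9% passed. The 4 in the last comparison were Cxcr4, Ccr7, S1pr1 and Cd69, all lower in the combination. The median log2 ratio of the 7 was -0.67, 0.25 and -0.29 for the 3 comparisons with IgG, beside 0.01, -0.03 and 0.03 over all measured genes. The comparisons with IgG share the IgG library.

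**Figure D2:**
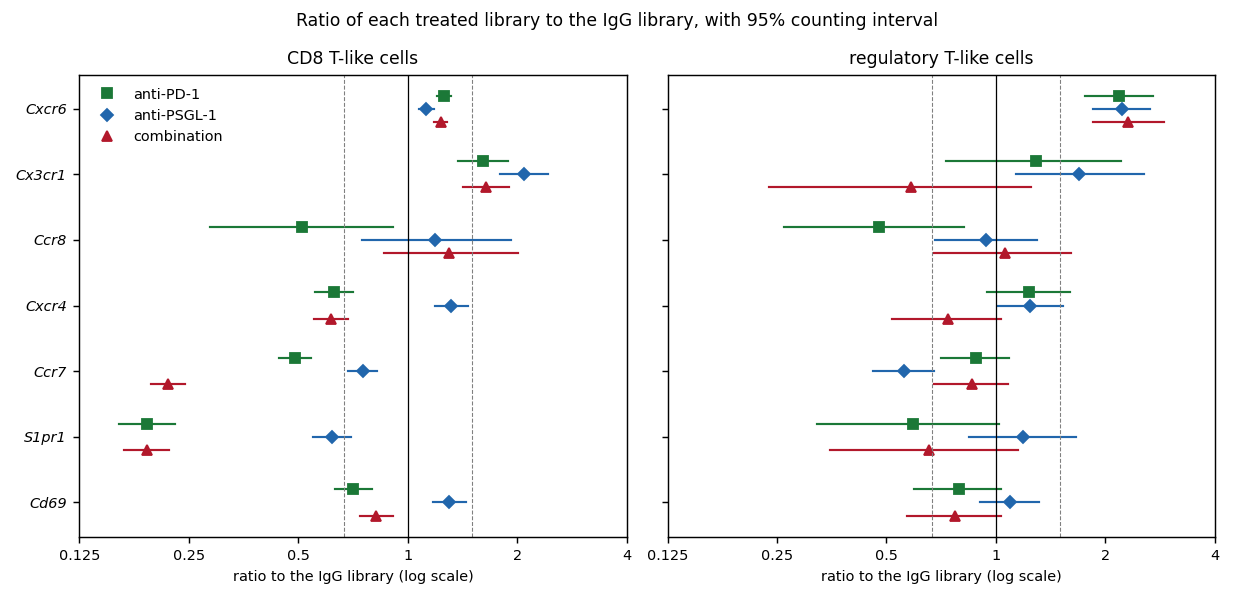
Ratio of each treated library to the IgG library (log axis) for the 7 members measured in CD8 T-like cells (left) and regulatory T-like cells (right), with 95% counting intervals as lines and the thresholds as dashed lines. In CD8 T-like cells S1pr1 and Ccr7 lie left of 1 in the 3 comparisons and Cx3cr1 right of 1, and in regulatory T-like cells Cxcr6 lies near 2.2 in each.

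For S1pr1 and Ccr7 the order of the libraries was the same in the share of cells with a UMI after each cell was thinned to 2000 UMIs, which removes the difference in depth. S1pr1 was found in 16.1%, 5.85%, 11.0% and 4.69% of CD8 T-like cells, and in 22.7%, 9.38%, 20.1% and 10.6% without thinning. Ccr7 was found in 15.0%, 8.17%, 11.0% and 3.19% after thinning and in 22.7%, 14.8%, 20.4% and 6.83% before. Cxcr6, highest in the combination by this measure, was found in 38.1%, 48.4%, 44.5% and 49.6% of thinned cells, and in 59.6%, 82.3%, 73.0% and 86.0% of unthinned ones. Macrophage- and monocyte-like cells, low in these 3 genes, had shares of 0.198% to 0.833% for them after thinning, well below the T cells. Their median depth was 4694 to 8074 UMIs against 4717 to 10919.5 in CD8 T-like cells. Thinning left out 62, 11, 32 and 22 CD8 T-like cells. For Ccr8 the thinned shares of CD8 T-like cells were 0.279% to 0.782%, so no order was read from them.

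The CD8 T-like subclusters differed in share between libraries and in the members' levels. Subclusters led by Tff1, Rgs16 and Ltf (36.2% of CD8 T-like cells) and by Dapl1, Igfbp4 and Lef1 (21.7%) held most cells of the IgG library, and the Tff1 subcluster (39.1%) and one led by Gzmk, Cd8b1 and Ccl5 (22.3%) most of the anti-PSGL-1 library. In the anti-PD-1 library the subclusters led by Serpine2, Gldc and Cd8a (31.9%) and by the cell division genes Hist1h1b and Ube2c (23.7%) were largest. In the combination library these were the Serpine2 (27.9%) and Gzmk (25.1%) subclusters. The Dapl1 subcluster, whose leading genes are those of naive T cells, made up 6.25% of anti-PD-1, 12.1% of anti-PSGL-1 and 0.891% of combination CD8 T-like cells, and a subcluster led by Gzmf, Gzme and Gzmd 12.6% of anti-PD-1 and 11.2% of combination cells but under 1% in the other 2 libraries. The 9 members were left out of the genes used for clustering.

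S1pr1 was high in 2 of the 6 subclusters. Over the libraries pooled it was at 333 CPM in the naive-like Dapl1 subcluster and 121 in the Gzmk subcluster, against 7.13 or less in the other 4. Ccr7 was at 479 CPM in the naive-like subcluster and 28.7 to 61.0 in the others. Cxcr6 had the opposite place, at 19.4 CPM in the naive-like subcluster and 279 to 563 in the others, with the Serpine2 and Tff1 subclusters highest. Cd69 followed S1pr1, at 233 CPM in the naive-like and 230 in the Gzmk subcluster against 26.0 to 37.9 elsewhere. Cxcr4 was highest in the Gzmk (127 CPM) and naive-like (109) subclusters and lowest in the Gzmf subcluster (12.0).

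Within the naive-like subcluster S1pr1 was at 410 (IgG), 252 (anti-PD-1) and 287 (anti-PSGL-1) CPM, ratios to IgG of 0.62 (0.475 to 0.787) and 0.70 (0.597 to 0.821), while the 15 combination cells were too few. In the Gzmk subcluster it was at 175, 120, 137 and 93.8 CPM, and the combination was at 0.54 of IgG (0.430 to 0.671). Each of these ratios was nearer to 1 than the one over all CD8 T-like cells. Without the naive-like subcluster the S1pr1 ratios to IgG were 0.32 for anti-PD-1, 1.02 for anti-PSGL-1 and 0.53 for the combination. With the 4 subclusters that held at least 50 cells in every library weighing the same, an alternative chosen after the data were seen, the S1pr1 ratios to IgG were 0.69, 0.86 and 0.55 for anti-PD-1, anti-PSGL-1 and the combination. How far the shares of the subclusters account for the difference over all CD8 T-like cells was not tested. Under that weighting the count past the threshold for anti-PD-1 against IgG was 0 with Ccr8 below 50 UMIs, and Cxcr4 in that comparison was at 1.14, on the other side of 1.

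Ccr7 in the combination library stayed low within subclusters. In the Gzmk subcluster Ccr7 was at 100.4, 164, 67.5 and 22.0 CPM. The combination-to-IgG ratio was 0.22 (0.150 to 0.317) there, 0.35 (0.233 to 0.511) in the Tff1, 0.34 (0.262 to 0.431) in the dividing and 0.18 (0.135 to 0.241) in the Serpine2 subcluster, and 0.24 with these 4 weighing the same. Anti-PD-1 went both ways, at 1.63 (1.17 to 2.26) of IgG in the Gzmk subcluster and 0.33 (0.251 to 0.443) in the Serpine2 subcluster.

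Cx3cr1 was past the threshold with anti-PSGL-1 in 2 of the 4 subclusters with at least 50 cells in every library. It was at 31.2 and 72.3 CPM in the IgG and anti-PSGL-1 cells of the Tff1 subcluster, a ratio of 2.32 (1.85 to 2.93), and at 2.14 (1.62 to 2.86) of IgG in the dividing subcluster. In the Gzmk and Serpine2 subclusters it was at 1.38 (0.737 to 2.71) and 1.39 (0.919 to 2.13), short of the threshold. For anti-PD-1 and the combination the Tff1 ratios were 1.16 and 1.13, short of the threshold, and for the combination the dividing subcluster was at 1.84 (1.41 to 2.43). In the Serpine2 subcluster both libraries were below IgG, at 66.0 and 53.6 CPM against 76.5. In the Gzmk subcluster both were above it, at 33.1 and 27.7 CPM against 19.6. Anti-PD-1 in the dividing subcluster was at 33.6 CPM against 23.1 in IgG. With the 4 subclusters weighing the same, Cx3cr1 was at 1.12, 1.70 and 1.06 of IgG for anti-PD-1, anti-PSGL-1 and the combination, so anti-PSGL-1 alone stayed past the threshold. Without the naive-like subcluster the ratio was 1.47 for anti-PD-1 and for the combination, also short of it, and after thinning it was 1.24 for the combination. Cd69 in the dividing subcluster was at 2.76 (2.09 to 3.68) of IgG under anti-PSGL-1 and at 1.66 (1.26 to 2.21) under both antibodies. Under anti-PSGL-1 it was also above IgG in the Tff1 (33.3 against 21.1 CPM), Serpine2 (74.3 against 47.1) and Gzmk (275 against 216) subclusters. In the naive-like subcluster it was below, at 184 against 218 CPM, and at 1.99 (1.60 to 2.48) of IgG with anti-PD-1. Cxcr4 with anti-PD-1 went both ways. In the Gzmk subcluster it was at 1.79 of IgG (1.31 to 2.44), and in the naive-like one at 136 CPM against 101 in IgG. It was below IgG in the Tff1 (48.6 against 59.9 CPM), dividing (40.6 against 50.6) and Serpine2 (28.4 against 51.0) subclusters. In the combination library Cxcr4 was at 32.4, 40.2 and 29.2 CPM in the Tff1, dividing and Serpine2 subclusters, also below IgG. In the Gzmk subcluster it was above, at 118 CPM against 104.

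**Figure D3:**
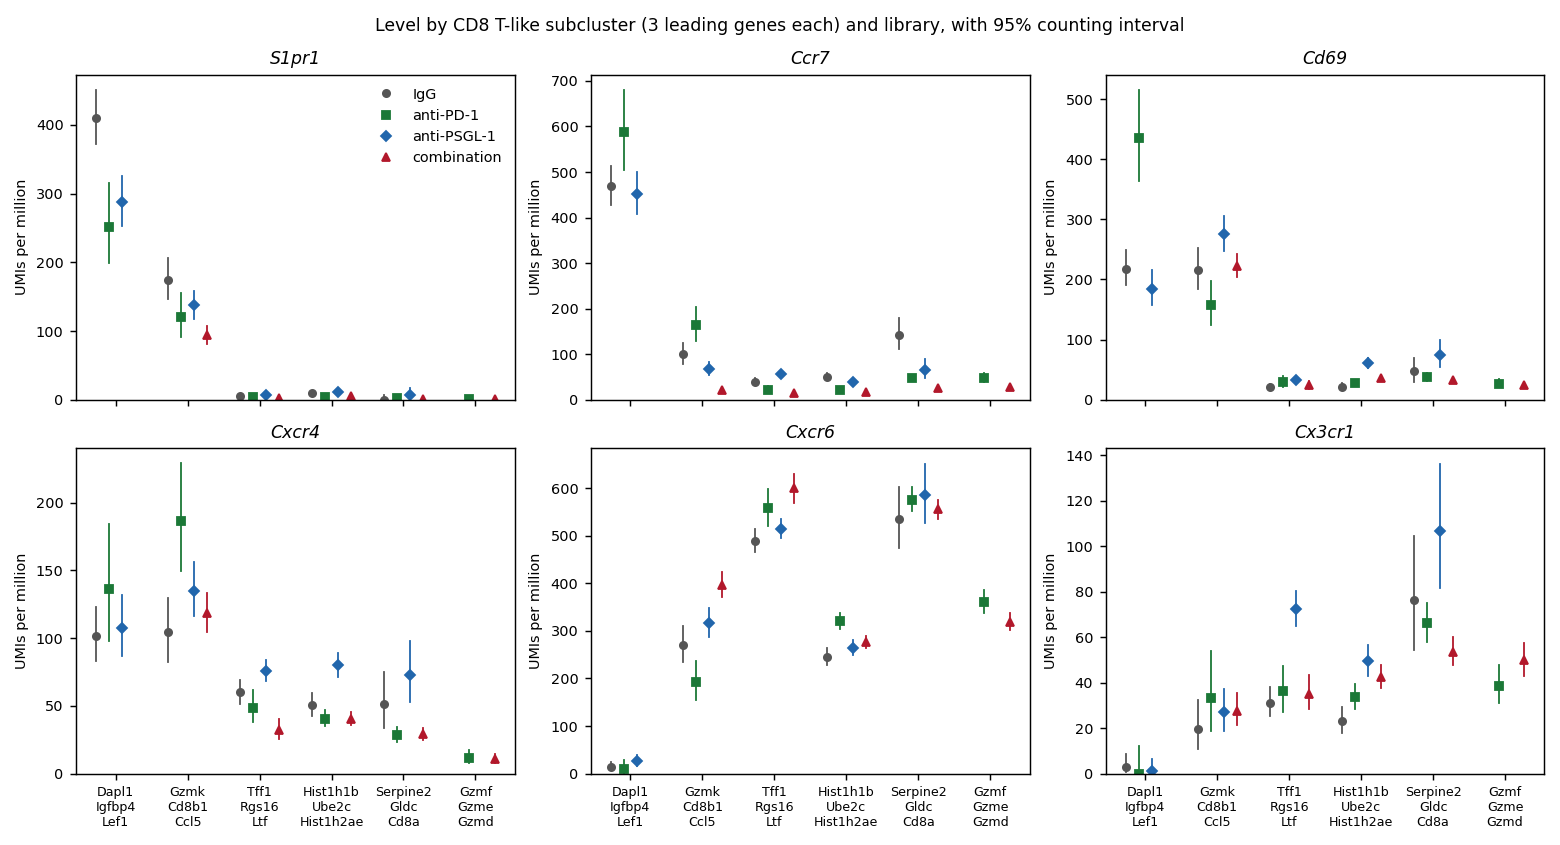
Level (CPM) of 6 members in the 6 CD8 T-like subclusters, named by their 3 leading genes, with one symbol per library of at least 20 cells and 95% counting intervals as lines. S1pr1 and Cd69 are high in the Dapl1 and Gzmk subclusters and low elsewhere, Cxcr6 is low in the Dapl1 subcluster, and Ccr7 is lowest in the combination library in each of the 5 subclusters where that library has a point.

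CD8 T-like cells with Cd69 RNA had S1pr1 RNA more often than those without. After thinning, S1pr1 had a UMI in 31.2% of IgG cells with a Cd69 UMI (95% interval 24.3% to 38.7%) and in 13.8% of those without (11.8% to 16.0%). The shares with and without Cd69 were 16.4% and 4.65% for anti-PD-1, 16.2% and 10.0% for anti-PSGL-1, and 9.84% and 4.02% for the combination, so cells with Cd69 were higher in each of the 4 libraries. Within the 2 subclusters that were high in S1pr1 the shares did not have this order. In the Gzmk subcluster 16.5% of cells with Cd69 (12.4% to 21.4%) and 22.1% of those without (19.1% to 25.2%) had S1pr1, and in the naive-like subcluster 43.8% and 48.0%, with overlapping intervals in both. In the Tff1 and dividing subclusters cells with Cd69 were higher, at 4.17% against 1.01% and 6.02% against 1.64%. Those shares rest on 3 and 5 cells with both genes, and the intervals overlap. In the Serpine2 subcluster no cell with Cd69 had S1pr1, against 0.225% of those without.

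**Figure D4:**
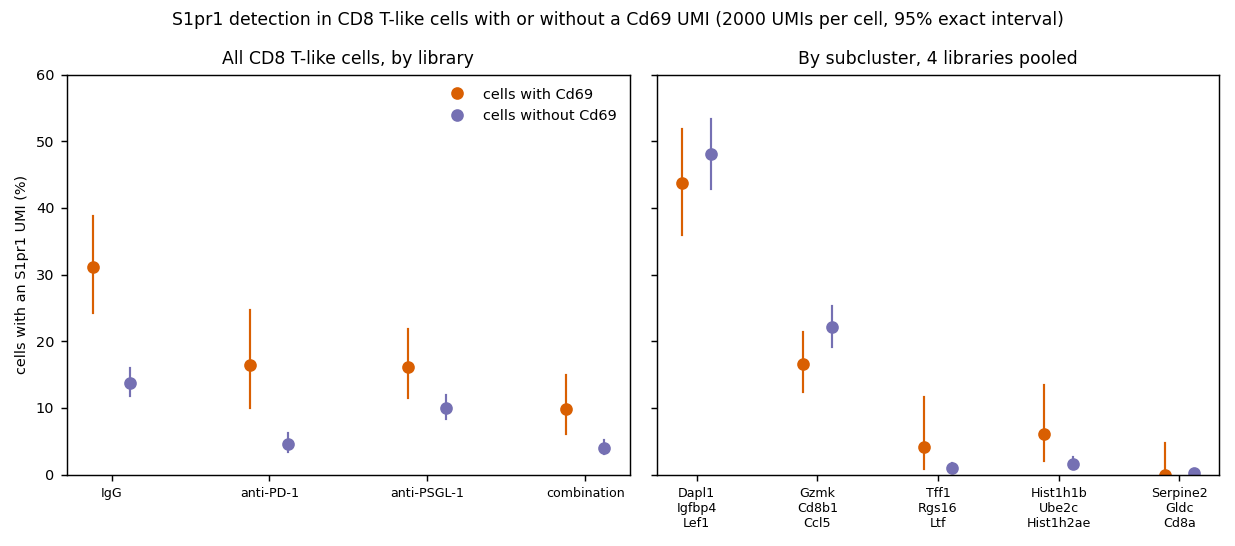
Share of CD8 T-like cells with an S1pr1 UMI, among cells with or without a Cd69 UMI, for all CD8 T-like cells by library (left) and for 5 subclusters with the libraries pooled (right), thinned to 2000 UMIs per cell, with exact 95% intervals as lines. Cells with Cd69 are higher in the 4 libraries, at 31.2% against 13.8% in IgG, but not in the Dapl1 and Gzmk subclusters.

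Over all CD8 T-like cells of a library, those with Cxcr6 had Ccr7 less often than those without it. Of IgG CD8 T-like cells with a Cxcr6 UMI after thinning, 4.08% had Ccr7, against 21.7% of those without. The pairs of shares were 3.84% and 12.2% for anti-PD-1, 5.50% and 15.4% for anti-PSGL-1, and 1.94% and 4.42% for the combination. Within the Gzmk subcluster the shares were 2.33% (1.07% to 4.37%) and 8.52% (6.46% to 11.0%). Within the Tff1 subcluster they were alike, at 3.62% and 3.75%. The intervals also overlapped in the dividing (2.88% and 4.03%), Serpine2 (4.11% and 5.07%) and Gzmf (6.29% and 4.81%) subclusters. In the naive-like subcluster 51.3% of 509 cells without Cxcr6 had Ccr7, and too few had Cxcr6 for a share. How far the naive-like cells account for the difference over all CD8 T-like cells was not tested.

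Conventional CD4 T-like cells had close Cxcr6 levels in the 4 libraries and more Cxcr4 with anti-PD-1. Cxcr6 was at 0.93 to 0.96 of IgG in the 3 treated libraries, but at 1.16 to 1.61 when CD4 cells were taken by marker UMIs in place of clusters. Cxcr4 was at 152, 343, 156 and 174 CPM, and the anti-PD-1 library stood above the other 3, at 2.25 of IgG (1.75 to 2.89). S1pr1 was at 223, 200, 181 and 96.7 CPM, and the combination was at 0.43 of IgG (0.326 to 0.568). Ccr7 was at 4.50 of IgG with anti-PD-1, but on 57 UMIs of which 5 cells held 82.5%, and at 0.57 by marker UMIs. The counts past the threshold were 2 of 5 measured members for anti-PD-1, where 12.6% of all measured genes passed, 0 of 5 for anti-PSGL-1, where 9.23% passed, and 1 of 4 for the combination, where 10.1% passed.

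Regulatory T-like cells had more Cxcr6 in each treated library. The levels were 76.3, 167, 169 and 177 CPM, with IgG apart from the other 3. The ratios to IgG were 2.18 (1.76 to 2.71), 2.22 (1.86 to 2.66) and 2.32 (1.85 to 2.90). After thinning, Cxcr6 had a UMI in 8.64% of IgG regulatory T-like cells and in 20.5%, 17.8% and 23.3% of the treated ones, and before thinning in 16.9%, 41.3%, 32.8% and 41.9%. A Cd8 UMI was held by 21.5% of cells in the Foxp3-led cluster of this class and 41.5% in the Hist1h2ae-led one. CD8 T-like cells were higher in Cxcr6, and whether this bears on the ratios was not tested. Taken by marker UMIs, which leaves out cells with a Cd8 UMI, these cells gave ratios of 3.63 for anti-PD-1 and 1.16 for anti-PSGL-1, the latter short of the threshold. Without cells holding Mki67 or Top2a the anti-PD-1 ratio was 1.49, also short of it. Ccr8, high in this class, was at 0.48 of IgG with anti-PD-1 (0.262 to 0.815) on 16 UMIs, or 0.77 by marker UMIs, and at 0.94 under anti-PSGL-1 and 1.06 in the combination library.

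Other members in regulatory T-like cells rested on few cells. Ccr7 was at 0.56 of IgG with anti-PSGL-1 (0.460 to 0.674), but at 0.84 by marker UMIs and 0.70 without cells holding Mki67 or Top2a, and in the combination library 5 cells held 87.2% of its 94 UMIs. Cx3cr1 was at 1.70 under anti-PSGL-1 (1.14 to 2.55) and at 0.58 in the combination library (0.237 to 1.25, on 8 UMIs). The former was 0.91 after thinning, on the other side of 1, and 1.05 by marker UMIs. In the IgG library 5 cells held 57.8% of the 45 Cx3cr1 UMIs. S1pr1 was at 0.59 with anti-PD-1 (0.321 to 1.02) and 0.66 with the combination (0.350 to 1.15), with intervals that reach 1. Each comparison with IgG had 3 of 7 measured members past the threshold, where 10.9%, 8.02% and 11.3% of all measured genes passed.

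NK-like cells had less S1pr1 in each treated library. S1pr1 was at 44.4, 26.1, 25.6 and 12.7 CPM. The ratios to IgG were 0.59 (0.413 to 0.826), 0.58 (0.412 to 0.797) and 0.29 (0.175 to 0.451). Cxcr4, at 297, 409, 200 and 170 CPM, was above IgG with anti-PD-1 (1.38, 1.24 to 1.53) and below it with anti-PSGL-1 (0.67, 0.598 to 0.758) and the combination (0.57, 0.499 to 0.654). The last of these is past the threshold, but at 0.68 after thinning. Cd69 was at 1.52 (1.21 to 1.91), 1.54 (1.24 to 1.92) and 1.27 (0.995 to 1.62) of IgG, and with each cell weighing the same the first 2 were 1.31 and 1.44, short of the threshold. Ccr7 was at 1.89 with anti-PD-1 (1.43 to 2.51), and Cxcr6 at 2.77 with anti-PSGL-1 (1.68 to 4.72) on a level of 26.8 CPM, or 1.53 with likely doublets kept. Members past the threshold were 3 of 4 for anti-PD-1, where 8.17% of all measured genes passed, 3 of 5 for anti-PSGL-1, where 12.5% passed, and 2 of 4 for the combination, where 17.6% passed.

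S1pr1 in other T cells was at 171, 80.6, 131 and 69.0 CPM. The anti-PD-1 library was at 0.47 of IgG (0.378 to 0.584) and the combination at 0.40 (0.308 to 0.523). In the cluster led by Klra1, Klra6 and Klra7, which is high in S1pr1, the levels were 255, 200, 214 and 202 CPM. That cluster made up 378 of 567 IgG cells of the class and 47 of 156 combination cells. In B-like cells, the class with the most S1pr1, no member was past the threshold with anti-PD-1 (0 of 5, where 16.2% of genes passed) or anti-PSGL-1 (0 of 5, where 11.5% passed).

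The ligand Cxcl16 was higher with anti-PD-1 in macrophages and in cDC2-like cells. Macrophage- and monocyte-like cells together held 161, 284, 109 and 170 CPM. The anti-PD-1 library was at 1.77 of IgG (1.67 to 1.87), anti-PSGL-1 at 0.68 (0.636 to 0.726) and the combination at 1.06 (0.993 to 1.13). In macrophage-like cells alone the levels were 208, 353, 143 and 234 CPM. In cDC2-like cells they were 202, 421, 214 and 301 CPM, and anti-PD-1 was at 2.08 of IgG (1.90 to 2.29) and the combination at 1.49 (1.34 to 1.67), just short of the threshold. Thinned shares of macrophage- and monocyte-like cells with Cxcl16 were 20.8%, 32.2%, 16.6% and 21.4%, and unthinned ones 34.9%, 50.7%, 33.8% and 46.2%. B-like cells had no Cxcl16 UMI in any library. They numbered 41 to 223 cells per library, at a median depth of 1655 to 2717 UMIs, so this is a weak comparison. Non-classical monocyte-like cells were at 2.44 of IgG with anti-PD-1 (1.52 to 4.10) and 1.87 (1.19 to 3.08) in the combination library, on 21 IgG UMIs. In cDC1-like cells Cxcl16 was at 0.97 of IgG with anti-PD-1 (0.764 to 1.23), while Cxcr4 there was at 2.13 with anti-PSGL-1 (1.32 to 3.54). In migratory dendritic-like cells, compared for anti-PSGL-1 alone, Cxcl16 was at 0.97 (0.868 to 1.09), Ccr7 at 0.94 (0.901 to 0.988), Cxcr6 at 1.70 (1.07 to 2.77), and Cxcr5 (0.60, 0.331 to 1.08) and Cd69 (0.65, 0.359 to 1.17) had intervals that reach 1.

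Cd69 was also higher with anti-PD-1 in the macrophage and monocyte classes as one, at 33.0, 65.3, 37.2 and 49.2 CPM. The anti-PD-1 library was at 1.98 of IgG (1.76 to 2.24) and the combination at 1.49 (1.31 to 1.70). Classical monocyte-like cells alone were at 34.6, 112, 37.5 and 46.3 CPM, a ratio of 3.23 (2.55 to 4.12) for anti-PD-1. Cx3cr1 was lower than IgG in non-classical monocyte-like cells in the treated libraries, at 0.53 (0.410 to 0.684), 0.71 (0.577 to 0.880, short of the threshold) and 0.61 (0.491 to 0.755). In cDC2-like cells it was at 28.9, 12.4, 10.5 and 9.63 CPM, with ratios of 0.43 (0.273 to 0.648), 0.36 (0.253 to 0.509) and 0.33 (0.185 to 0.562). There 5 cells held 34.9% of the 126 IgG UMIs, and the overlapping gene Csrnp1 was far above Cx3cr1, as given above. Cxcr4 in cDC2-like cells was at 1.65 of IgG with anti-PD-1 (1.41 to 1.93), and Cd69 there was at 0.59 with the combination (0.450 to 0.766). Cxcr6 in cDC2-like cells was at 20.7 CPM with anti-PSGL-1 against 8.27 in IgG, past the threshold (interval of the ratio 1.69 to 3.78). Ccr7, S1pr1 and Cxcr6 were low in macrophage- and monocyte-like cells, at 6.25 CPM or less. No background level was measured, so their ratios there were not read as a property of these cells.

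**Figure D5:**
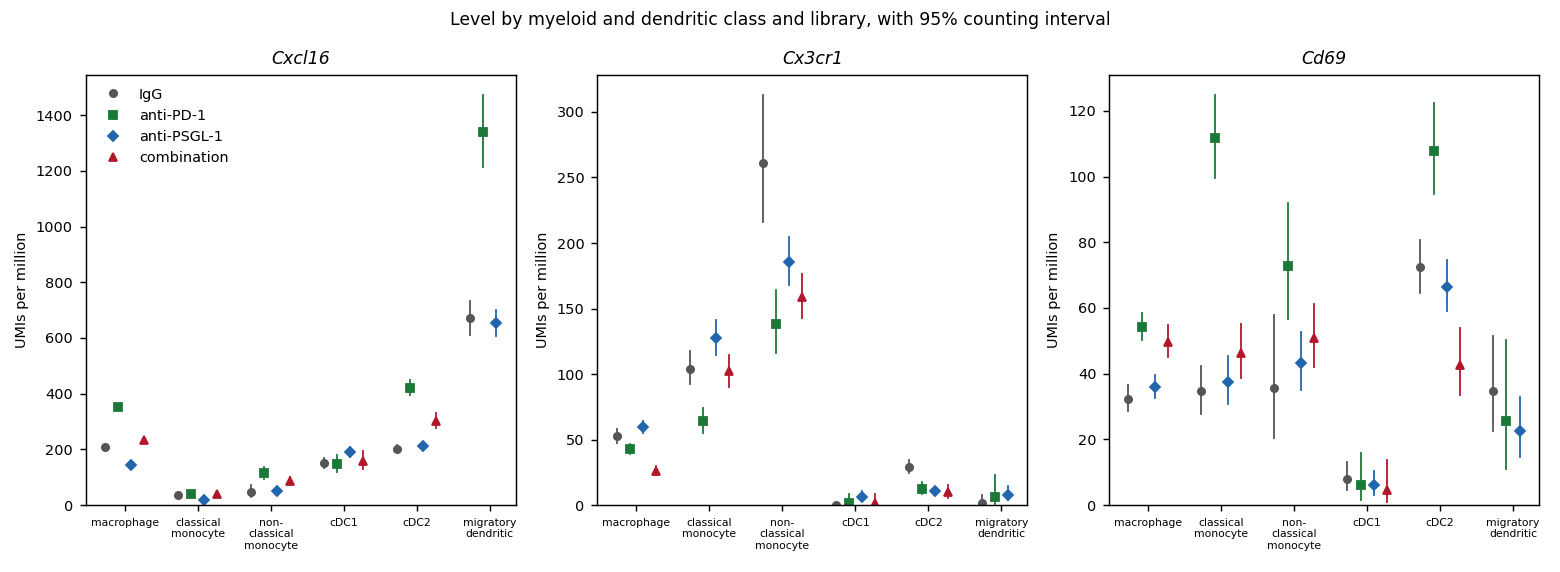
Level (CPM) of Cxcl16, Cx3cr1 and Cd69 in 6 myeloid and dendritic classes, with one symbol per library of at least 20 cells and 95% counting intervals as lines. Cxcl16 is highest in the anti-PD-1 library in macrophage-like and cDC2-like cells (353 and 421 CPM) and in migratory dendritic-like cells (1339 CPM), and Cx3cr1 is highest in non-classical monocyte-like cells.

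In macrophage- and monocyte-like cells 4 of 6 measured members were past the threshold for anti-PD-1, where 14.4% of all measured genes passed, 0 of 7 for anti-PSGL-1, where 5.44% passed, and 3 of 7 for the combination, where 8.11% passed. The last 3 were Cxcr6, Ccr7 and S1pr1, each low in these cells. In cDC2-like cells 3 of 6 were past it for anti-PD-1, where 13.9% passed, 2 of 6 for anti-PSGL-1, where 9.53% passed, and 2 of 5 for the combination, where 12.2% passed. In neutrophil-like cells Cxcr4 was the 1 measured member for anti-PD-1, at 1.76 of IgG (1.31 to 2.34), where 26.2% of genes passed.

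Of 44 other genes of homing and residence, 24 were measured in CD8 T-like cells in each comparison with IgG. Past the threshold were 4 higher and 7 lower for anti-PD-1, 3 higher and 2 lower for anti-PSGL-1, and 3 higher and 5 lower for the combination, where 10.4%, 4.13% and 10.3% of all measured genes passed in either direction. Klf2, a transcription factor known to drive S1pr1, was at 166, 60.3, 134 and 52.1 CPM, ratios of 0.36 (0.332 to 0.397) for anti-PD-1 and 0.31 (0.290 to 0.339) for the combination, so it was lowest in the combination, like Ccr7.

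At the other end, Itga1, the alpha-1 integrin chain of tissue-resident T cells, was at 1.52, 5.24, 3.37 and 4.55 CPM, above IgG by ratios of 3.46 (1.89 to 6.83), 2.22 (1.17 to 4.53) and 3.00 (1.67 to 5.83), on 13 IgG UMIs. Ccr1 was highest in the combination, at 3.45 of IgG (2.34 to 5.25), and Ccr2 with anti-PSGL-1 was at 1.87 (1.63 to 2.15). Between the combination and anti-PD-1, Cxcr3, a receptor of effector T cells, was at 2.42 (2.05 to 2.87) and Itga4 at 1.79 (1.69 to 1.90). Against IgG the anti-PD-1 library was the one past the threshold, at 0.37 for Cxcr3 and 0.65 for Itga4, and the combination was at 0.90 and 1.17. The median log2 ratio of the list was -0.10, 0.02 and 0.04 for the 3 comparisons with IgG, beside 0.01, -0.03 and 0.03 over all measured genes.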

How the data were processed

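The deposited matrices hold raw counts of unique molecular identifiers (UMIs) per gene and cell barcode in 4 libraries, 1 per group. The authors made them with Cell Ranger 3.1.0 on mm10 and used FastQC, per the submitters' processing notes. The annotation version and any filter on barcodes are not stated in the labels. Per the deposited counts, the libraries held 9733, 5621, 7302 and 4614 barcodes (IgG, anti-PD-1, anti-PSGL-1, combination).

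Barcodes under 300 genes, above 60000 UMIs or with over 10% of UMIs from mitochondria were left out. Scrublet's own threshold marked 1, 84, 0 and 42 cells, too few in 2 libraries to be of use, so a fixed share of the top scores was taken out, 0.8% per 1000 cells (717, 219, 377 and 154). Cells were clustered (2000 variable genes without the 9 members, 30 principal components, 20 neighbours, Leiden resolution 1, scanpy 1.11.5) and named from marker lists. The naming thresholds were set after the clusters were seen, and a class can differ from one the authors would have made. CPM was summed UMIs over the class total, with exact Poisson, conditional binomial and Clopper-Pearson 95% intervals from scipy 1.17.1, which cover counting error only. Classes needed 50 cells per library for a ratio and 20 for a level. UMIs come from molecules, but cells of a library are not replicates, so no test between groups was made.

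The rule for named genes took the 9 members in the classes compared, of which the text gives the main values, and of the 44 other genes at most the 3 highest and 3 lowest per comparison. One gene under that rule is not reported here. Members and lists were chosen with earlier results of these data known. The calculation of ratios and intervals was tried on simulated Poisson counts. These hold no spread between cells or libraries, so the trial covers the calculation alone. The alternatives tried were another scaling, other UMI minimums, marker gates, doublets kept, stricter cell filters, equal cell weights, thinning to 2000 UMIs, and CD8 T-like cells without some subclusters.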

Additional observations from a re-analysis of the deposited data

Results flagged for a closer look

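Some genes lay past the threshold on one side of IgG in one class and on the other side in another class, under the same antibody. The differences between classes were not tested, and each value rests on 1 library per group.

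With anti-PD-1, Cxcr4 was at 0.628 of IgG in CD8 T-like cells but at 2.25 in conventional CD4 T-like, 1.65 in cDC2-like and 1.76 in neutrophil-like cells. The ratio in CD8 T-like cells was 1.14 with subclusters weighing the same, and 1.79 within the Gzmk subcluster. Within the Tff1, dividing and Serpine2 subclusters Cxcr4 was below IgG, as given above. Ccr7 with anti-PD-1 was at 0.489 in CD8 T-like and 0.395 in macrophage- and monocyte-like cells, the latter at a low level. It was at 4.50 in conventional CD4 T-like and 1.89 in NK-like cells. The value of 4.50 rests on 5 cells with 82.5% of the UMIs.

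Cx3cr1 was higher than IgG in CD8 T-like cells and lower in cDC2-like cells with each treatment. The ratios in CD8 T-like cells were 1.61 with anti-PD-1, 2.09 with anti-PSGL-1 and 1.64 with both. With subclusters weighing the same they were 1.12, 1.70 and 1.06, so anti-PSGL-1 alone stayed past the threshold. Those in cDC2-like cells were 0.428, 0.361 and 0.333, where a few IgG cells held much of the UMIs, as given above. Regulatory T-like cells were at 1.70 with anti-PSGL-1, but at 0.91 after thinning, on the other side of 1.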

How the results depend on the processing

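Of 417 values of ratios past the threshold under the alternatives, 372 stayed past it and 412 had the same direction. Of the 417, 27 are the main ratios themselves under the minimum of 200 UMIs and could not change. In CD8 T-like cells 9 of 17 stayed past it with subclusters weighing the same, and 12 of 17 without the naive-like subcluster. The cause of each exception was not tested. The 5 that turned were Ccr7 in conventional CD4 T-like cells with anti-PD-1 (0.57) and Cxcr6 in macrophage- and monocyte-like cells with the combination (0.87) by marker gates, Cx3cr1 in regulatory T-like cells with anti-PSGL-1 after thinning (0.91), S1pr1 in CD8 T-like cells with anti-PSGL-1 without the naive-like subcluster (1.02), and Cxcr4 in CD8 T-like cells with anti-PD-1 with subclusters weighing the same (1.14).

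Counts of members past the threshold that moved by over 1.5 times are given here, against IgG unless named otherwise. With no UMI minimum they were 4, 2 and 4 in conventional CD4 T-like cells and 6, 5 and 4 in NK-like cells (anti-PD-1, anti-PSGL-1, combination), 5 in regulatory T-like cells (combination) and 1 in macrophage- and monocyte-like cells (anti-PSGL-1). With at least 200 UMIs they were 1 in CD8 T-like cells (combination against anti-PD-1), conventional CD4 T-like cells (anti-PD-1), regulatory T-like cells (anti-PD-1 and combination) and NK-like cells (anti-PSGL-1 and combination), and 2 (anti-PD-1) and 0 (combination) in macrophage- and monocyte-like cells. By marker gates they were 1 and 5 in conventional CD4 T-like cells and 1 and 1 in macrophage- and monocyte-like cells (anti-PSGL-1, combination), and 0 in regulatory T-like cells (anti-PSGL-1), where the combination had under 50 gated cells and no value. With doublets kept they were 5 in NK-like and 1 in macrophage- and monocyte-like cells (anti-PSGL-1), and with equal cell weights 2 in the latter. After thinning they were 3, 2 and 1 in CD8 T-like cells (anti-PD-1, combination, combination against anti-PD-1), and 2 and 0 in macrophage- and monocyte-like cells (anti-PD-1, combination). In CD8 T-like cells with anti-PD-1 they were 3 without the naive-like subcluster, 3 without the Gzmf subcluster and 0 with subclusters weighing the same, the last 2 settings chosen after seeing the data. Without cells holding Mki67 or Top2a they were 3, 1 and 1 in CD8 T-like cells (anti-PD-1, anti-PSGL-1, combination against anti-PD-1), 2 in conventional CD4 T-like cells (combination), and 1 in regulatory T-like cells (anti-PD-1 and anti-PSGL-1).

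No paired analysis was possible because each group is 1 library, and no replicate was there to leave out. Depth limits Ccr8, Cxcr5 outside B-like cells, and each class with few cells, above all in the combination library.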
